A study of Mus musculus with 15 samples.

Results

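Border-associated macrophage markers were followed as a set of 7 genes, Mrc1, Cd163, Lyve1, Pf4, F13a1, Stab1 and Cbr2, out of 36528 gene IDs counted in each sample. The genes were taken by name, through their NCBI Gene IDs, and all 7 had enough reads to be tested among 13994 genes. RNA was sequenced from cells of the mouse cortex that had been sorted for green fluorescent protein from a Cx3cr1 reporter, which the labels call microglia. PS2APP samples (n = 9; 4 at 14 months and 5 at 15 months) came from mice with transgenes for human mutant presenilin 2 and mutant amyloid precursor protein, a model that forms amyloid plaques. Samples labelled non-Tg (n = 6; 2 at 14 months and 4 at 15 months) came from mice without those transgenes. All samples of both groups carried the Cx3cr1::GFP label used for the sort; how many copies of the reporter allele the mice carried is not given in the sources used here. The labels do not state that each sample was a separate mouse, so every p-value measures the spread between these samples.

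Border-associated macrophages line the surfaces of the brain. They sit in the meninges, along vessels in the perivascular space and in the choroid plexus, whereas microglia live within the tissue itself. Both are long-lived macrophages that depend on the receptor Csf1r, and many border-associated macrophages also express Cx3cr1, so a gate on a Cx3cr1 reporter can admit them. They are told apart from microglia by endocytic and scavenger receptors such as the mannose receptor Mrc1, the haemoglobin-haptoglobin receptor Cd163 and the hyaluronan receptor Lyve1, and by the chemokine Pf4. They take up material from blood and cerebrospinal fluid and have been studied in vascular amyloid. In bulk RNA such as this, fewer cells of a type and less RNA per cell cannot be told apart.

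The upstream sequence of a pair of genes that varied together, Mrc1 and Pf4, is shown beside that of Stab1, which varied apart from them across these samples. Sequences are from RefSeq on GRCm38.p6, run 5′ to 3′ on the strand of the gene and end at the base before its annotated span. Capitals mark matches to GAGGAA or its reverse complement TTCCTC, the core of the element bound by PU.1, the factor that all macrophages need, and, in Stab1, also TGCTGA, a core of the element bound by MAF factors.
Mrc1: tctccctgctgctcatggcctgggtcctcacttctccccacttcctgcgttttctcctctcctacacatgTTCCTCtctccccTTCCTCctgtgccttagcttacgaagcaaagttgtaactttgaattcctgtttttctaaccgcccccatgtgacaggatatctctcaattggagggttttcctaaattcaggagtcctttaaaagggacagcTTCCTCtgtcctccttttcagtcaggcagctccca
Pf4: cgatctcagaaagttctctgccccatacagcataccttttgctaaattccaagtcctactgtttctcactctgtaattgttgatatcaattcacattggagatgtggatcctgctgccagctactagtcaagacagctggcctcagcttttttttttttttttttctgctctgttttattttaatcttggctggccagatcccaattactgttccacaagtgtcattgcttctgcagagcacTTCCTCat
Stab1: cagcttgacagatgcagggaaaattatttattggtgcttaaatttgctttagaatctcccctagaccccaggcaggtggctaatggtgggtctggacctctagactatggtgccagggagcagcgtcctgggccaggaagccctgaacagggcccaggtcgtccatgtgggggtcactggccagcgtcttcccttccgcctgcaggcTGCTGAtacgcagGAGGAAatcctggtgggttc
The Mrc1 stretch is chr2:14229164-14229413 on the plus strand, that of Pf4 is chr5:90772185-90772434 on the plus strand, and that of Stab1 is chr14:31168652-31168891 on the minus strand. Windows of 250 bases were found for 6 of the 7 genes, with 2 windows for F13a1 and none for Lyve1, and both strands were searched. The PU.1 core was present in windows of 5 genes (Mrc1 with 3 matches, and Pf4, F13a1, Stab1 and Cbr2 with 1 each) and in 23.3% of 32851 promoter windows of the genome. The MAF core TGCTGA, also searched as TCAGCA, was present in the Stab1 window alone among the 7 windows, and in 16.1% of all windows. The AP-1 motif TGANTCA was in 0 of the 7 windows and in 6.75% of all. These matches describe letters in a window and are not measured binding sites.

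The samples held between 3664742 and 8455237 counted reads, with a median of 5867848. Microglial genes were abundant in every sample: the purinergic receptor P2ry12 averaged 517 ± 113 nRPKM in PS2APP and 659 ± 157 nRPKM in non-Tg samples, and Tmem119 averaged 181 ± 45.5 nRPKM in PS2APP and 259 ± 62.7 nRPKM in non-Tg samples (SD, n = 9 and 6; nRPKM is the authors' RPKM, reads per unit of gene length adjusted by a size factor). Of 14 homeostatic microglial genes 0 were called higher and 1 lower in PS2APP. Of 14 plaque-associated genes 11 were called higher and 0 lower. A group of 4 libraries stood apart in immediate early genes, namely PS2APP samples 1 and 4 and non-Tg samples 9 and 13, in which Fos lay between 267 and 3554 CPM (counts scaled to the TMM-adjusted library size); in the others it lay at or under 9.53 CPM.

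All 7 markers were low relative to the microglial genes, and their levels differed widely among themselves. On the per-length nRPKM scale Stab1, a scavenger receptor for modified lipoproteins that is also found on sinusoidal endothelium, was the highest, at 8.60 ± 2.50 in PS2APP and 11.1 ± 3.30 in non-Tg samples. Mrc1 averaged 4.38 ± 1.60 in PS2APP and 3.65 ± 1.77 in non-Tg samples, and Pf4, a chemokine also stored in platelets, averaged 3.29 ± 2.76 in PS2APP and 5.14 ± 4.62 in non-Tg samples. The remaining genes were lower. F13a1, the catalytic subunit of the fibrin-crosslinking factor XIII, averaged 1.34 ± 0.293 nRPKM in PS2APP and 1.06 ± 0.657 nRPKM in non-Tg samples. Lyve1 averaged 0.932 ± 1.15 nRPKM in PS2APP and 0.562 ± 0.344 nRPKM in non-Tg samples. Cbr2, a carbonyl reductase, averaged 0.736 ± 0.446 nRPKM in PS2APP and 1.08 ± 0.967 nRPKM in non-Tg samples. Cd163 was at 0.481 ± 0.283 nRPKM in PS2APP and 0.778 ± 1.18 nRPKM in non-Tg samples. The means ran from Stab1 through Mrc1, Pf4, F13a1, Lyve1 and Cbr2 to Cd163 in PS2APP samples, and from Stab1 through Pf4, Mrc1, Cbr2, F13a1 and Cd163 to Lyve1 in non-Tg samples. The ranges of neighbours in each order overlapped in every case, so these orders are of means only. As a percentage of the P2ry12 nRPKM, Mrc1 stood between 0.406% and 1.60% in PS2APP samples (median 0.830%) and between 0.145% and 1.01% in non-Tg samples (median 0.615%).

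None of the 7 markers passed the test of PS2APP against non-Tg samples. With edgeR's quasi-likelihood test and Benjamini-Hochberg adjustment over all genes, 0 of 7 were called at an adjusted p under 0.05, against 1.18% of all genes tested (0.958% higher and 0.222% lower). At an unadjusted p under 0.05 the count was 0 of 7 against 11.7% of all genes. DESeq2 called 0 of 7 as well, against 388 of 13646 genes tested, with 0 of 7 at an unadjusted p under 0.05. Limma-voom called 0 of 7, against 200 of 13994 genes, with 2 at an unadjusted p under 0.05, namely Mrc1 and F13a1. The share of all genes at that unadjusted p is not given for DESeq2 or limma-voom, so these counts have no background beside them. The groups overlapped in all 7 genes, while they did not overlap in 0.636% of all genes. The median log2 fold change of the markers was -0.28, with 3 of 7 positive, beside a median of -0.02 and 47.3% positive over all genes tested.

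**Figure D1:**
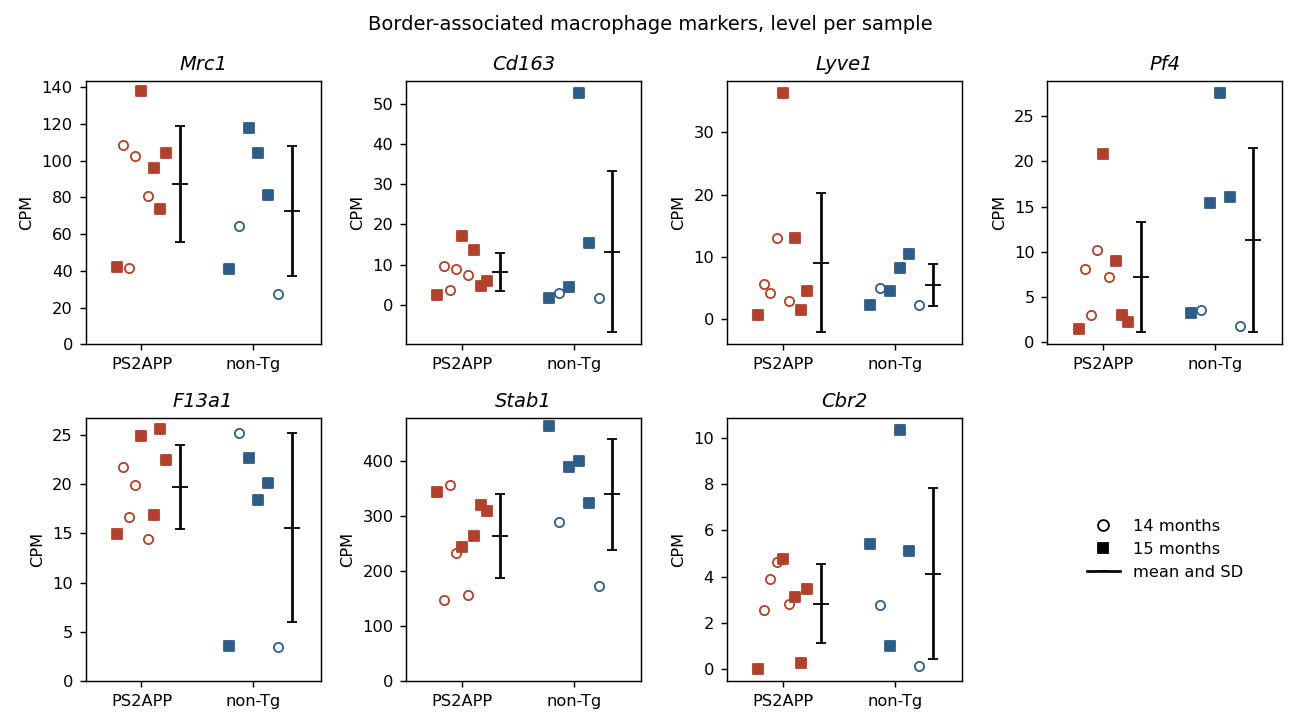
Level of each of the 7 markers in CPM (counts scaled to the TMM-adjusted library size) per sample, PS2APP (red, n = 9) left of non-Tg (blue, n = 6), with open circles for 14 months, filled squares for 15 months and the mean and SD beside each group. The groups overlap in every panel, and single samples lie far above the rest for Cd163 (non-Tg sample 11, 52.6 CPM) and Lyve1 (PS2APP sample 7, 36.3 CPM).

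The receptors were examined first. Mrc1 ranged in PS2APP samples from 41.6 to 138 CPM with a median of 96.1, and in non-Tg samples from 27.3 to 118 CPM with a median of 73.0. Its low samples lay in both groups: PS2APP samples 1 and 4 at 41.9 and 41.6 CPM, and non-Tg samples 2 and 13 at 40.9 and 27.3 CPM. The log2 fold change was 0.36 ± 0.29 (SE; edgeR adjusted p = 0.701), with 2 SE either side reaching from -0.23 to 0.94, and an exact two-sided permutation test of the 2 groups' log2 CPM gave p = 0.364.

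Cd163 ranged from 2.34 to 17.0 CPM (median 7.29) in PS2APP samples and from 1.72 to 52.6 CPM (median 3.78) in non-Tg samples. A single library, non-Tg sample 11, held the 52.6 CPM; the next non-Tg sample, 12, held 15.3 CPM and the other 4 lay between 1.72 and 4.52 CPM. The log2 fold change was -0.28 ± 0.67 (edgeR adjusted p = 0.924), with 2 SE from -1.61 to 1.06. Without non-Tg sample 11 it was 0.77 (edgeR adjusted p = 0.629), so this library set the sign of the difference. The mean of log2 CPM, which weights the samples equally, was 0.22 higher in PS2APP (exact permutation p = 0.757).

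Lyve1, which lymphatic endothelium also uses, ranged from 0.638 to 36.3 CPM (median 4.50) in PS2APP samples and from 2.24 to 10.5 CPM (median 4.75) in non-Tg samples. PS2APP sample 7 held the highest value and the next were samples 6 and 10, both at 13.1 CPM, so the groups overlapped over the whole non-Tg range. The log2 fold change was 0.83 ± 0.63 (edgeR adjusted p = 0.665), and 0.10 without PS2APP sample 7. The mean of log2 CPM was 0.14 higher in PS2APP (exact permutation p = 0.845). Ccl21a, a chemokine of lymphatic endothelium, had 0 reads in all 15 samples, while Prox1, its defining transcription factor, averaged 44.5 ± 11.7 CPM in PS2APP and 42.5 ± 21.9 CPM in non-Tg samples. Of 5 lymphatic endothelial genes only 1 had enough reads to be tested. The 5 summed to between 16.8 and 53.1 CPM in PS2APP and between 22.6 and 83.6 CPM in non-Tg samples. The part of such cells in the Lyve1 values was not tested.

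Stab1 had the most reads of the 7 genes. It ranged from 146 to 357 CPM (median 263) in PS2APP samples and from 173 to 463 CPM (median 356) in non-Tg samples, and non-Tg samples 13, 5 and 12 lay within the PS2APP range. The log2 fold change was -0.28 ± 0.19 (edgeR adjusted p = 0.609; exact permutation p = 0.177), and 2 SE either side reached from -0.66 to 0.10. The size of this difference moved with the samples and terms in the fit, without a call in any of them. It was -0.54 on the log2 scale (edgeR unadjusted p = 0.00474, adjusted p = 0.131) when the 4 libraries with high Fos were left out. It was -0.49 (adjusted p = 0.391) without 3 libraries low in Xist, namely PS2APP sample 14 and non-Tg samples 12 and 13. The labels do not give the sex of the mice. The log2 fold change was -0.01 at 14 months alone against -0.42 at 15 months alone. With the mean level of neuron markers as a covariate it was 0.10 ± 0.27. This neuron score lay between 1.39 and 3.58 log2 CPM in PS2APP and between 3.33 and 4.28 log2 CPM in non-Tg samples. A covariate that differs in this way between the groups cannot be fully separated from genotype in this fit. That neuron score had a Pearson r of 0.56 with Stab1 over the 15 samples (permutation p = 0.0297) and a Spearman rho of 0.52 (permutation p = 0.0501), which did not pass adjustment over 56 relations (Benjamini-Hochberg adjusted p = 0.293). The r was 0.39 without the 2 samples farthest from the median score, 0.42 within PS2APP (exact permutation p = 0.261) and 0.66 within non-Tg samples (exact permutation p = 0.163). Within non-Tg samples the neuron score had r = 0.92 with Mrc1, 0.87 with Pf4 and 0.86 with Lyve1, none past adjustment (lowest adjusted exact permutation p = 0.194). The part of neuron-derived RNA in these values was not tested further.

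The secreted chemokine and the enzymes followed. Pf4 ranged from 1.49 to 20.9 CPM (median 7.29) in PS2APP samples and from 1.85 to 27.6 CPM (median 9.52) in non-Tg samples. In PS2APP the highest was sample 7, and in non-Tg sample 11, followed by samples 12 and 9 at 16.1 and 15.4 CPM, with the other 3 non-Tg samples at or under 3.60 CPM. The log2 fold change was -0.33 ± 0.63 (edgeR adjusted p = 0.898; exact permutation p = 0.527). Ppbp, which encodes another platelet chemokine, was highest in the same non-Tg sample 11, at 24.2 CPM, and reached 1.81 CPM in the PS2APP samples and 6.05 CPM in the other non-Tg samples. The summed platelet and megakaryocyte markers lay between 156 and 248 CPM in PS2APP and between 166 and 216 CPM in non-Tg samples, and of the 4 that were tested Gp9 was lower in PS2APP (-1.48 ± 0.28, edgeR adjusted p = 0.00729). Itga2b, a platelet integrin, had 0 reads in non-Tg samples 11 and 12 and in PS2APP samples 7, 8 and 14. It reached 6.38 CPM at most, in non-Tg sample 2. The mean log2 CPM of the 4 tested markers was lowest in non-Tg sample 11 of all 15 samples, at 3.25. With this marker score as a covariate the Pf4 fold change was -0.56 ± 0.63 on the log2 scale. The score was lowest in the library with the highest Ppbp, so this fit cannot adjust Pf4 for RNA that Ppbp marks. The part of platelet RNA in the Pf4 values was not tested.

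F13a1 was the steadiest gene of the group in PS2APP, from 14.4 to 25.7 CPM with a median of 19.9. In non-Tg samples it held 3.60 CPM in sample 2 and 3.43 CPM in sample 13, against 18.4 to 25.2 CPM in the other 4. The log2 fold change was 0.37 ± 0.37 (edgeR adjusted p = 0.770; exact permutation p = 0.166). The same 2 non-Tg samples also had the lowest Mrc1 and Cd163 of their group.

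Cbr2 was the lowest counted gene. It ranged from 0 to 4.76 CPM (median 3.11) in PS2APP samples and from 0.132 to 10.4 CPM (median 3.94) in non-Tg samples. PS2APP sample 1 had 0 reads, which allows up to 0.638 CPM at 3 reads, counting error only. Its log2 fold change was -0.43 ± 0.80 (edgeR adjusted p = 0.893, exact permutation p = 0.707). With 2 SE either side it reached from -2.03 to 1.16, or between 0.246-fold and 2.24-fold.

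**Figure D2:**
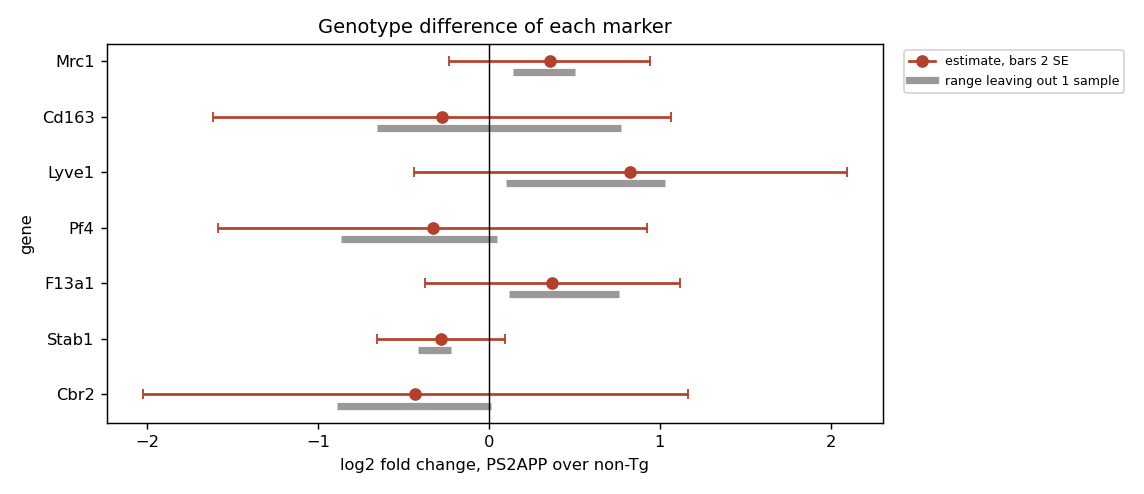
Log2 fold change of each marker, PS2APP over non-Tg, from the edgeR fit with age (red points; bars are 2 SE either side), with the range of the estimate when 1 of the 15 samples is left out in turn (grey). Every red bar crosses 0, and the grey range crosses 0 for Cd163, Pf4 and Cbr2.

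Age within this range showed no called change in the markers either. The test of 15 against 14 months called 0 of 7 markers and 0% of all genes, and 1 of 7 against 7.95% had an unadjusted p under 0.05. That gene was Stab1, at 0.54 ± 0.19 on the log2 scale (edgeR unadjusted p = 0.0101, adjusted p = 0.571). The genotype by age interaction called 0 of 7 markers and 0% of all genes, with 2 of 7 markers and 7.42% of genes at an unadjusted p under 0.05. These were Cd163 (-2.74 ± 1.26, edgeR adjusted p = 0.666) and Pf4 (-2.51 ± 1.18, adjusted p = 0.666). At 14 months Cd163 lay between 3.74 and 9.70 CPM in PS2APP samples and at 1.72 and 3.05 CPM in the 2 non-Tg samples. At 15 months it lay between 2.34 and 17.0 CPM in PS2APP and between 1.80 and 52.6 CPM in non-Tg samples. The 14-month values rest on only 2 non-Tg libraries, of which sample 13 is high in immediate early genes.

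Cbr2 and Pf4 varied widely across samples in both groups, while other markers did so mainly in 1 group. By the SD of log2 CPM among all genes tested, Cbr2 stood at percentile 98.3 in PS2APP and 95.4 in non-Tg samples, and Pf4 at 94.2 in PS2APP and 93.0 in non-Tg samples. Lyve1 stood at percentile 99.4 in PS2APP and 68.8 in non-Tg samples, Cd163 at 84.9 in PS2APP and 98.2 in non-Tg samples, and F13a1 at 20.7 in PS2APP and 88.0 in non-Tg samples. Mrc1 stood at percentile 67.1 in PS2APP and 66.1 in non-Tg samples, and Stab1 at 50.1 in PS2APP and 37.2 in non-Tg samples. By level over all samples Stab1 was at percentile 96.2 of the genes tested, Mrc1 at 81.3 and Cbr2 at 11.3, and genes with few reads also vary more by counting.

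Samples tended to be high or low in several markers together. The mean z-score of the 7 (each gene's log2 CPM scaled over the 15 samples) was highest in non-Tg sample 11, at 1.12, and in PS2APP sample 7, at 0.97. It was lowest in non-Tg sample 13, at -1.56, and in PS2APP sample 1, at -1.01, both among the 4 libraries with high Fos. The other 2 of those libraries, PS2APP sample 4 and non-Tg sample 9, had mean z-scores of -0.21 and 0.33. The mean z-score ranged from -1.01 to 0.97 (median 0.06) in PS2APP samples and from -1.56 to 1.12 (median 0.12) in non-Tg samples, so the groups overlapped almost entirely. Summed without Stab1, the markers reached 61.3 to 242 CPM (median 143) in PS2APP and 36.7 to 222 CPM (median 126) in non-Tg samples.

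**Figure D3:**
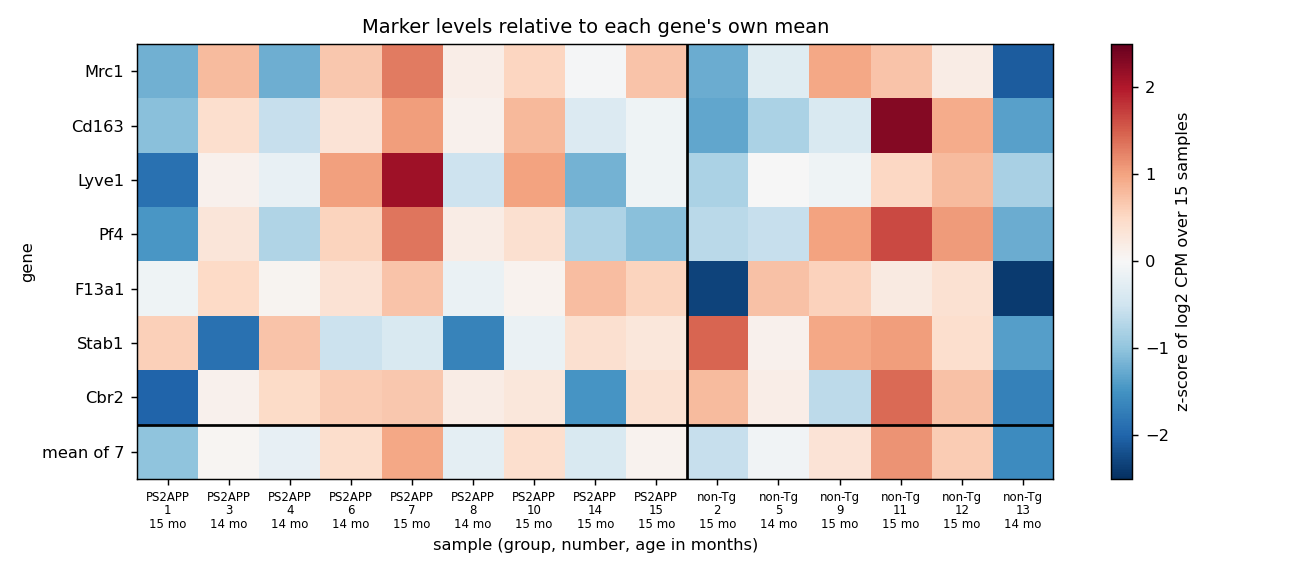
Z-score of log2 CPM of each marker (rows) in each sample (columns, 9 PS2APP left of 6 non-Tg, with sample number and age in months) and their mean in the last row. Non-Tg sample 11 and PS2APP sample 7 are high in most rows, non-Tg sample 13 is low in all 7, and Stab1 does not follow Mrc1 in several PS2APP samples.

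Mrc1, Cd163, Lyve1 and Pf4 varied together from sample to sample, whereas Stab1 did not follow them. Of the 21 pairs of markers, 10 had a Benjamini-Hochberg adjusted permutation p under 0.05 for Pearson r over the 15 samples. The share of other gene pairs that reach this was not computed, so the count has no background beside it. All 6 pairs among Mrc1, Cd163, Lyve1 and Pf4 were among the 10, with r from 0.68 to 0.84. These genes were grouped after the r values were seen, so that all 6 pairs pass follows from the choice. By Spearman rho those 6 were also under 0.05, and of the other 15 pairs none was. The highest pair was Cd163 and Pf4, with r = 0.84 (permutation p = 0.0001, adjusted p = 0.00210) and rho = 0.80 (permutation p = 0.000590, adjusted p = 0.00455). Lyve1 and Pf4 had r = 0.77 (permutation p = 0.000670, adjusted p = 0.00634) and rho = 0.84 (permutation p = 0.000190, adjusted p = 0.00399). Mrc1 and Pf4 had r = 0.75 (permutation p = 0.00107, adjusted p = 0.00634) and rho = 0.71 (permutation p = 0.00381, adjusted p = 0.0160).

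The relation of these 4 genes was seen inside each genotype and age, though not always past the threshold. Their 6 r values had a median of 0.75 over all samples, 0.88 within PS2APP (4 of 6 with an adjusted exact permutation p under 0.05) and 0.85 within non-Tg samples (0 of 6). Cd163 and Pf4 had r = 0.92 within the 9 PS2APP samples (adjusted exact permutation p = 0.00953) and r = 0.89 within the 6 non-Tg samples (adjusted exact permutation p = 0.0583). Within 14 months the median r was 0.82 and within 15 months 0.76, each with 0 of 6 past the threshold. These subsets are parts of the same libraries in which the genes were grouped, so they are not a separate test of the grouping. Without the 2 samples farthest from the median of the first gene the r values were 0.62 to 0.81 with 3 past it. When the 4 libraries that stood apart in these early genes were left out they were 0.57 to 0.88, and Cd163 with Pf4 was the only one past it (r = 0.88, adjusted permutation p = 0.00399).

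F13a1 and Cbr2 followed in part. F13a1 varied with Mrc1 (r = 0.75, permutation adjusted p = 0.00634; rho = 0.58, adjusted p = 0.0663), and its r with Cd163, Lyve1 and Pf4 lay between 0.39 and 0.52. Cbr2 had r between 0.48 and 0.70 with the 4 genes, of which 3 were past the threshold, and r = 0.19 with F13a1. None of the 6 pairs with Stab1 was past it, with r between -0.13 and 0.15 over all samples. Mrc1 and Stab1 had r = -0.10 (permutation p = 0.732) and rho = -0.16 (p = 0.574) over all samples. Within PS2APP their r was -0.54 (exact permutation p = 0.113), and within non-Tg samples it was 0.59 (exact permutation p = 0.225); the difference between the groups was not tested. The median r of the 6 Stab1 pairs was -0.46 within PS2APP and 0.45 within non-Tg samples.

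**Figure D4:**
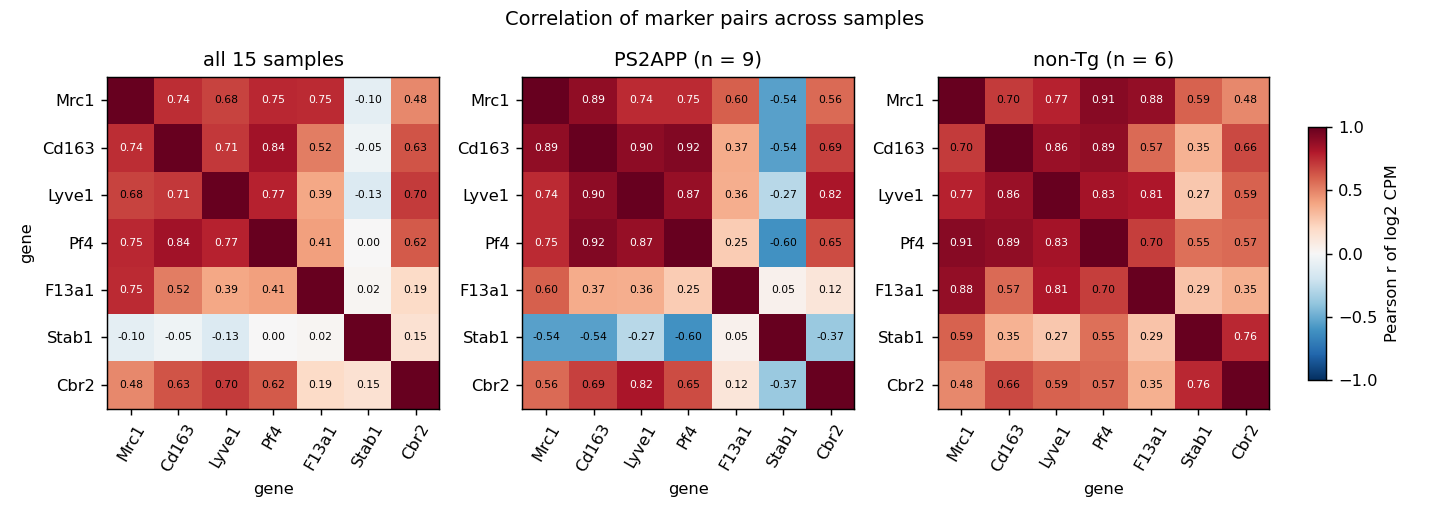
Pearson r of log2 CPM for each pair of the 7 markers over all 15 samples, within PS2APP (n = 9) and within non-Tg (n = 6). The 6 pairs among Mrc1, Cd163, Lyve1 and Pf4, genes grouped after the r values were seen, are positive in every panel (0.68 to 0.84 over all samples). Pairs with Stab1 lie near 0 over all samples, mostly below 0 in PS2APP and above 0 in non-Tg.

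Other genes known from border-associated macrophages were among those that varied most closely with the markers. Ranked by r with the mean z-score of the 7 over 13987 genes, Clec10a, a galactose-binding lectin of macrophages, came first with r = 0.87, and Ms4a4a (r = 0.73) and Ms4a7 (r = 0.73), membrane proteins of the MS4A family, were 8th and 10th. The other genes among the 15 closest were Flacc1, Shq1, Vamp5, Sh3bp5l, Galnt12, Ttl, Rexo5, Tmem134, Traf3ip1, Adam1a, Snrnp25 and Ubfd1, with r from 0.71 to 0.87. These r are descriptions over the same 15 libraries, with no test. Clec10a itself had 0 to 5.44 CPM in PS2APP samples (median 2.05) and 0.264 to 12.8 CPM in non-Tg samples (median 1.52), and its highest libraries were non-Tg sample 11 and PS2APP sample 7, the same as for the marker mean.

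Over a list of 36 further genes of these cells, 28 were tested and their median r was 0.22, beside -0.01 over all genes. This was not particular to the list: the median r was 0.51 for 5 pericyte and smooth muscle genes, 0.41 for 9 MHC class II genes, and 0.20 each for the haem and iron, plaque-associated and neuron lists. Mgl2, a lectin closely related to Clec10a, had r = 0.63 and Dab2, an endocytic adaptor, had r = 0.62. At the other end Igfbp4 had r = -0.22 and the scavenger receptor Cd36 had r = -0.08. Mgl2 and Clec10a are close paralogues. The counts hold uniquely aligned reads, so reads that match both genes equally would be counted for neither. Of the 15 closest genes 5 were kept when Spearman rho replaced r and 4 when genotype and age were removed first. In a ranking by single markers, added after the values were seen, Clec10a was the gene closest to Cd163 (r = 0.85) and to Mrc1 (r = 0.81). The gene closest to Stab1 was Ctc1, a telomere maintenance factor, at r = 0.94.

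**Figure D5:**
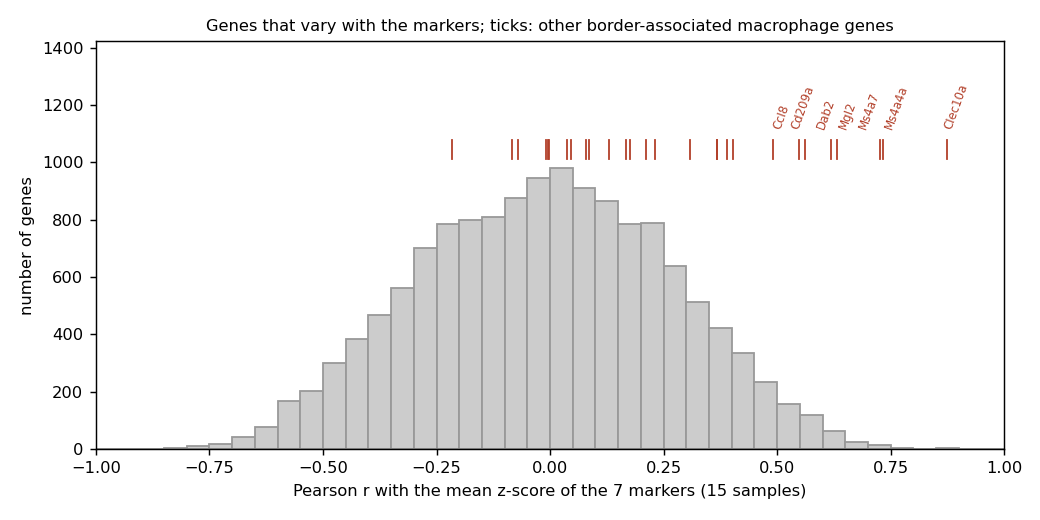
Number of genes by Pearson r with the mean z-score of the 7 markers over 15 samples (grey, 13987 genes, bins of 0.05), with ticks for 28 further genes of border-associated macrophages and names for the 7 highest. Clec10a (0.87), Ms4a4a (0.73) and Ms4a7 (0.73) lie at the upper end, and the list as a whole is spread over the range with a median of 0.22.

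In that list of further genes 3 were called for genotype. Of 28 tested, 3 were higher in PS2APP and 0 lower, against 0.958% higher and 0.222% lower over all genes tested. The median log2 fold change of the 28 was 0.48, beside -0.02 over all genes. In PS2APP samples the list summed to between 1771 and 3304 CPM, and the 7 markers to between 271 and 486 CPM. How much of the list's RNA came from border-associated macrophages was not tested. Wfdc17, a small secreted protein, ranged from 5.90 to 32.3 CPM in PS2APP samples (median 10.6) and from 0.164 to 5.15 CPM in non-Tg samples (median 0.761), with no overlap between the groups (3.41 ± 0.64, edgeR adjusted p = 0.00603). Gas6, a ligand of TAM receptors, averaged 132 ± 29.3 CPM in PS2APP and 81.1 ± 12.6 CPM in non-Tg samples (0.72 ± 0.16, adjusted p = 0.0219). Nrp1, a co-receptor for semaphorins and VEGF, averaged 446 ± 116 CPM in PS2APP and 260 ± 69.1 CPM in non-Tg samples (0.74 ± 0.17, adjusted p = 0.0256). With the mean z-score of the 7 markers, Wfdc17 had r = 0.23, Gas6 r = -0.0049 and Nrp1 r = 0.09.

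Genes of related function were tested in lists, beside the same 0.958% higher and 0.222% lower over all genes tested. Of 15 tested scavenger receptors 1 was higher in PS2APP, the hyaluronan receptor Cd44, at 23.1 ± 10.03 CPM in PS2APP and 5.32 ± 3.52 CPM in non-Tg samples (2.14 ± 0.37, edgeR adjusted p = 0.00253), and 0 were lower. Stab2, the close relative of Stab1, was at or under 0.554 CPM in every sample. Of 12 tested genes of haem and iron handling, the route that Cd163 feeds, 0 were called; Hmox1, which breaks down haem, averaged 16.8 ± 6.28 CPM in PS2APP and 13.8 ± 8.15 CPM in non-Tg samples, and the iron exporter Slc40a1 averaged 167 ± 33.6 CPM in PS2APP and 234 ± 42.9 CPM in non-Tg samples (-0.49 ± 0.16, adjusted p = 0.173). Of 9 tested transcription factors of macrophage identity 0 were called. Maf averaged 884 ± 321 CPM in PS2APP and 688 ± 154 CPM in non-Tg samples, and Spi1, which encodes PU.1, averaged 150 ± 34.6 CPM in PS2APP and 191 ± 36.9 CPM in non-Tg samples.

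Other programs and cell types were set beside the markers. Of 56 relations between the 7 markers and 8 marker scores, 0 had an adjusted permutation p under 0.05 and 8 had an unadjusted p under 0.05. By r the nearest was Cbr2 with the immediate early score, at r = -0.65 (permutation p = 0.00977, adjusted p = 0.293; rho = -0.45, permutation p = 0.0930), and -0.49 without the 2 samples farthest from the median score. With MHC class II genes, which some border-associated macrophages use, Cd163 had r = 0.58 (permutation p = 0.0248, adjusted p = 0.293) and rho = 0.71 (permutation p = 0.00412, adjusted p = 0.148). That r was 0.65 without the 2 farthest samples, 0.25 within PS2APP (exact permutation p = 0.515) and 0.83 within non-Tg samples (exact permutation p = 0.0458). Monocyte markers summed to between 43.3 and 87.5 CPM in PS2APP and between 27.1 and 69.8 CPM in non-Tg samples, with 0 of 5 tested called. Their score had r = 0.55 with Lyve1 (permutation p = 0.0344) and 0.53 with Pf4 (permutation p = 0.0419), each with adjusted p = 0.293. With the other markers r lay between -0.33 (Stab1) and 0.48 (Mrc1). For Lyve1 it was 0.98 within non-Tg samples (exact permutation p = 0.00139, adjusted p = 0.0778) and 0.46 within PS2APP (exact permutation p = 0.211). Ccr2, the chemokine receptor of classical monocytes, averaged 30.2 ± 4.63 CPM in PS2APP and 27.4 ± 6.58 CPM in non-Tg samples. Choroid plexus markers were highest in non-Tg sample 9, at 422 CPM. Over the 15 samples their score had r between -0.25 (Cbr2) and 0.30 (Pf4) with the 7 markers, with unadjusted permutation p from 0.277 to 0.891. Without non-Tg samples 9 and 13, the 2 farthest from the median score, r lay between -0.07 (F13a1) and 0.62 (Cd163). Pf4 was then at 0.48 and Cbr2 at 0.15, with no test of these values. The part of these cells and programs in the marker levels was not tested.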

How the data were processed

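Total RNA of sorted Cx3cr1::GFP+ cortical cells was sequenced in 15 samples (9 PS2APP, 6 non-Tg). The submitters' processing notes name the aligner GSNAP and the build GRCm38; the sources used here give neither strandedness nor annotation. The deposited counts are whole numbers of uniquely aligned reads per NCBI Gene ID, per the file headers. The deposited nRPKM is the RPKM adjusted by a size factor, per the file headers, and how the authors computed that factor is not stated. Symbols and coordinates came from RefSeq (GRCm38.p6), which matched 31049 of 36528 IDs. No pair of samples of the same group agreed within sampling noise (chi-square per degree of freedom 10.9 to 74.5 over 51 such pairs).

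Counts were tested with edgeR 4.0.16 (R 4.3.3): filterByExpr, TMM, a quasi-likelihood model of age and genotype, and Benjamini-Hochberg adjustment over 13994 genes. The SE was taken from each log2 fold change and its F statistic (absolute fold change over root F). CPM uses TMM-scaled library sizes. Correlations used log2 CPM (prior count 2) with 100000 resamples, or exact permutation for 9 or fewer samples. Alternatives used DESeq2 1.42.0 and limma 3.58.1. The fit was tested on simulated data. Markers, lists and tests were chosen with earlier results of these data known. Named genes are the 7 markers, the 15 genes most like them, and up to 4 genes of each list by smallest p and by level; others were chosen after their values were seen.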

Additional observations from a re-analysis of the deposited data

Results flagged for a closer look

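Of 14 groups of values examined (7 markers in PS2APP and in non-Tg samples), 3 held a sample set far apart from the rest of its group by Dixon's criterion on CPM. For normally spread values chance gives this in about 1 group in 20; CPM of these genes is skewed, and on log2 CPM, a scale added after seeing the data, 0 groups were past the criterion. In PS2APP samples, Lyve1 was 36.3 CPM in sample 7, against 13.1 CPM in the next sample (gap over range 0.651, critical value 0.493, and 0.278 on log2 CPM). In the same library Pf4 was 20.9 CPM, against 10.3 CPM in the next (0.547, and 0.283 on log2 CPM). In non-Tg samples, Cd163 was 52.6 CPM in sample 11, against 15.3 CPM in the next (0.732, critical value 0.625, and 0.375 on log2 CPM).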

How the results depend on the processing

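None of the 7 markers was called for genotype in the main fit or in any of 32 alternatives (224 values), in which the lowest edgeR adjusted p was 0.131, for Stab1 when the 4 immediate-early-high libraries were left out. The signs of Mrc1, Lyve1 and F13a1 stayed positive in all 32, with sizes from 0.07 (15 months alone) to 0.90 (14 months alone) for Mrc1, 0.10 (without PS2APP sample 7) to 2.29 (neuron score as a covariate) for Lyve1, and 0.09 (without 3 libraries low in Xist) to 1.03 (neuron score) for F13a1. Over all genes 165 were called, 648 with no count filter, 388 with DESeq2 and 81 without 3 libraries low in Xist. Calls fell to 65 at 15 months alone, 50 at 14 months alone and 20 with the neuron score as a covariate. With 1 sample left out 118 to 188 were called. The neuron score was lower in most PS2APP than non-Tg samples, so the fit with it cannot fully separate it from genotype.

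Signs turned as follows (log2 fold change). At 14 months alone Cd163, Pf4 and Cbr2 were 1.70, 1.46 and 1.44. With the neuron score, which itself differed between the genotypes, they were 0.30, 0.34 and 0.14, and Stab1 was 0.10. With limma-voom Cd163, Pf4 and Cbr2 were 0.72, 0.0932 and 0.54. Cd163 was 0.16 on log2(nRPKM + 0.1), and Pf4 was 0.0190 with the choroid plexus score. Leaving out 1 sample gave -0.66 to 0.77 for Cd163, -0.86 to 0.0490 for Pf4 and -0.89 to 0.0103 for Cbr2, each highest without non-Tg sample 11. The age difference of Cbr2 was -0.57 in PS2APP alone. The cause was not tested.

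Of 21 pairs 10 were past the threshold, and 5 within PS2APP, 0 within non-Tg, 0 at 14 and 0 at 15 months, 3 without the 2 farthest samples, 1 without those 4 libraries, and 7 to 11 with 1 sample left out. Lyve1 and Stab1 had r of 0.27 in non-Tg, 0.24 at 14 months and 0.00580 without the 2 farthest samples; Mrc1 and Stab1 0.59 and Cd163 and Stab1 0.35 in non-Tg. Leaving out 1 sample gave -0.42 to 0.0511 and -0.31 to 0.12 for these 2 pairs. Of the 15 genes most like the markers 5 were kept by Spearman rho, 4 on residuals and 3 to 13 with 1 sample left out, 3 without non-Tg sample 13.

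No paired analysis was possible because the sample numbers in the labels are not shared between the groups. Cbr2, Lyve1, Pf4 and Cd163 had few reads, which limits their precision.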
